A study of Rattus norvegicus with 12 samples.

Results

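Messenger RNA of 8 genes was followed through brain tissue of rats after stroke. They encode the growth factors Bdnf, Ntf3 and Gdnf and the receptors Ntrk2, Ntrk3, Ngfr, Gfra1 and Ret. The genes were found by symbol among the 37209 symbols of the deposited count table, and all 8 were present. All 8 also held enough counts to enter the test, which 17008 genes did.

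The groups were middle cerebral artery occlusion (MCAO, blockage of a large artery that feeds the side of the forebrain) with the sham group coded LN, and pontine infarction (a stroke of the pons in the brainstem) with the sham group coded PN. Each group had 3 libraries from Sprague Dawley rats at postnatal day 21, and no label names a genetic change or a drug in any group. Each sham group was set against the stroke whose code has the same first letter. According to the labels 3 rats had each stroke. The labels name the brain as tissue but no dissected region and no time after surgery, and do not say how the sham rats relate to the strokes, so the p-values measure the spread between these samples.

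Neurotrophins are secreted growth factors that sustain neurons and adjust synapses. Bdnf, brain-derived neurotrophic factor, acts through the receptor tyrosine kinase TrkB, encoded by Ntrk2, and Ntf3 acts mainly through TrkC, encoded by Ntrk3. Ngfr encodes the low-affinity receptor that binds all neurotrophins and their precursors and has no kinase of its own. Gdnf, glial cell line-derived neurotrophic factor, binds Gfra1, a co-receptor anchored to the membrane by a lipid, and the pair signals through the receptor tyrosine kinase Ret. Gdnf is best known for its support of dopamine neurons of the midbrain and of motor neurons, cells that carry Ret.

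The 3 genes of the Gdnf system are shown with the sequence before their start, because Ret and Gfra1 each rose after MCAO and Gdnf after pontine infarction. Each line gives the 250 bases upstream of the annotated transcript start, 5′ to 3′ on the gene's strand, from RefSeq on the assembly GRCr8.
Ret, chr4:153040557-153040806, minus strand: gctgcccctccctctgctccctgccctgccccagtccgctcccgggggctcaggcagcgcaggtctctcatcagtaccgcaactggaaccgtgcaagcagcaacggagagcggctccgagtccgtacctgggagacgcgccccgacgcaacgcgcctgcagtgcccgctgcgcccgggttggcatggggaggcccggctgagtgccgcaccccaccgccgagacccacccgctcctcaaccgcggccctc
Gfra1, chr1:267555812-267556061, minus strand: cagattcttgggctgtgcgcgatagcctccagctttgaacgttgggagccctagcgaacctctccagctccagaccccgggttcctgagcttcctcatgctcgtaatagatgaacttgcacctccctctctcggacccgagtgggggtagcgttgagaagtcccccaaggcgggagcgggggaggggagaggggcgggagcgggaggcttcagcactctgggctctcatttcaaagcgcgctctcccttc
Gdnf, chr2:58621077-58621326, plus strand: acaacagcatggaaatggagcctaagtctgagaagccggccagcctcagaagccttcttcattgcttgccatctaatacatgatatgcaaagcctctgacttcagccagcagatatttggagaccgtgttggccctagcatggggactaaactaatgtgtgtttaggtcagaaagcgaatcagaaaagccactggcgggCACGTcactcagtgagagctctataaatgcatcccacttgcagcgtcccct
Capitals mark matches, on either strand, to 4 motifs that were searched and of which none contains another: the cAMP response element TGACGTCA, the AP-1 site TGANTCA, the Egr1 site GCGNGGGCG and the core of the hypoxia response element, ACGTG. Only Gdnf holds one, an ACGTG on the other strand, 51 bases before the start. Of 33469 rat windows of this length, 16.6% hold that core, 6.34% the AP-1 letters, 4.29% the Egr1 letters and 1.59% the cAMP response element. Windows were found for 5 of the 8 genes. Bdnf, which has many alternative first exons, has 6 of them.

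The libraries held 19805815 to 40400676 counts. The labelled tissue fits its markers, since the neuronal gene Snap25 was at 469 CPM or more and the astrocyte gene Gfap at 366 CPM or more in every library, where CPM is a gene's count relative to the scaled total of its library. MCAO replicate 1 stood apart by choroid plexus transcripts, with Ttr at 1019 CPM against 16.9 CPM or less in the other 11. Pontine infarction replicate 3 stood apart by the cerebellar gene Gabra6, at 75.2 CPM against 2.88 CPM or less elsewhere, and by Slc6a3, the dopamine transporter, at 0.0374 CPM against 60.3 to 119 CPM in the other pontine infarction and sham PN libraries. For 1 MCAO library the number in its column code differs from those in the titles, and it is called unnumbered. Values of the MCAO libraries follow the order replicate 1, replicate 2, unnumbered.

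**Figure D1:**
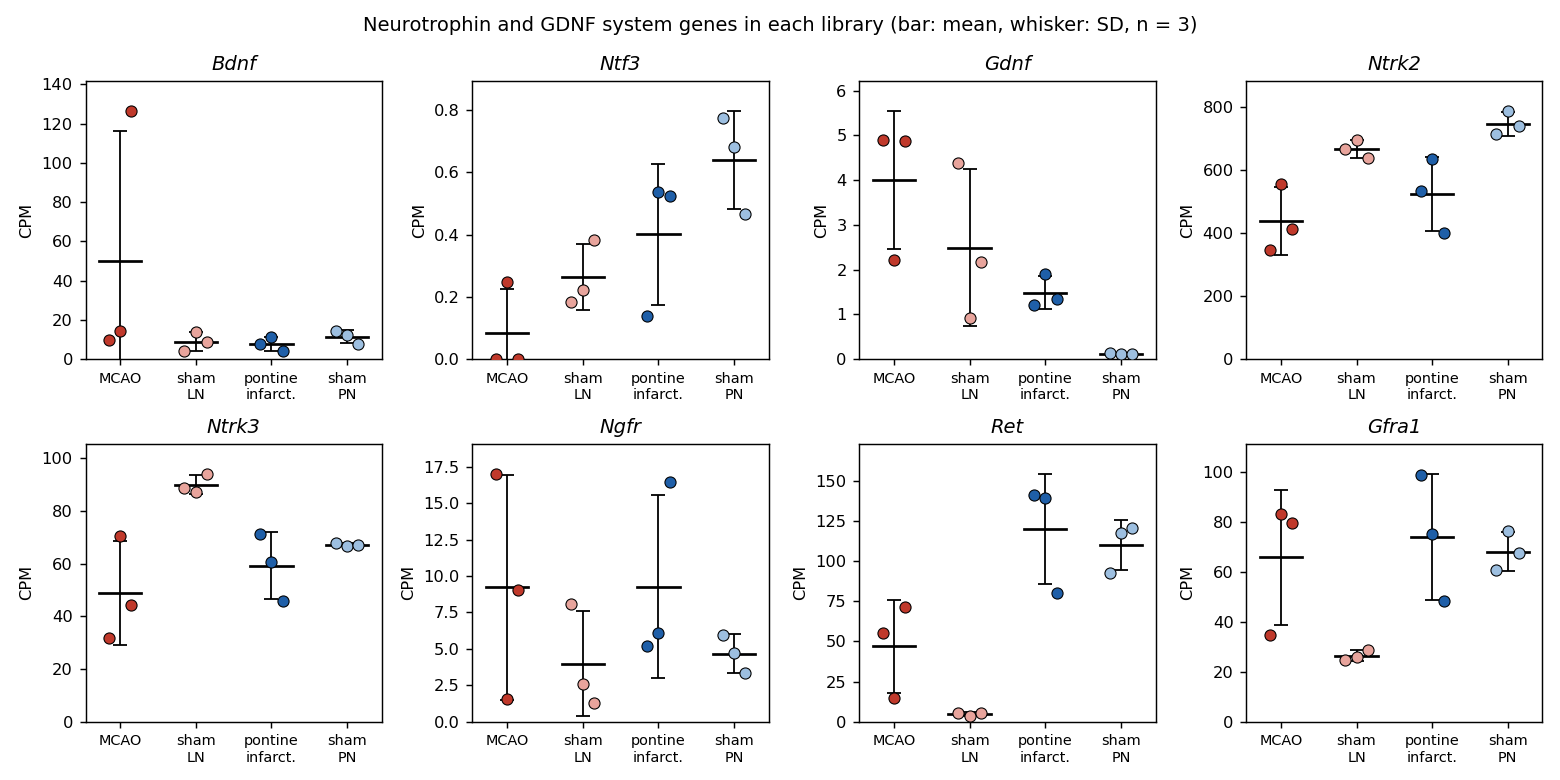
Normalised level (CPM, vertical axes, each from 0) of the 8 genes in each of the 12 libraries, in the order MCAO, sham LN, pontine infarction, sham PN; circles are libraries, bars the means and whiskers the SD (n = 3). Ret is low in sham LN, at 4.83 ± 1.29 CPM, and Gdnf in sham PN, at 0.117 ± 0.011 CPM, while a single MCAO library carries the high Bdnf value.

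The comparison of MCAO with sham LN asks how these growth factors and receptors differ after a stroke of the cerebral hemisphere. Both receptors for Gdnf rose: Ret 9.69-fold and Gfra1 2.49-fold. The receptor Ntrk3 fell to a fraction of 0.542 of its sham level. Bdnf, Ntf3, Gdnf, Ntrk2 and Ngfr did not pass the test. Of the 8 genes 3 passed, 2 higher and 1 lower, while of all genes tested 18.6% passed, 12.5% higher and 6.07% lower (edgeR quasi-likelihood test, adjusted p under 0.05). DESeq2 called 2532 genes higher and 2052 lower, against 2131 and 1032 by edgeR. The median log2 change of the 8 was 0.94, beside -0.0018 over all genes tested.

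Ret, the kinase through which Gdnf signals, stood at 54.9, 14.7 and 71.1 CPM in the MCAO libraries, against 5.48, 3.34 and 5.66 CPM in sham LN. Every MCAO library lay above every sham LN library, and replicate 2 was the nearest to them. The log2 change was 3.28 ± 0.49 (SE, edgeR adjusted p = 0.00246). It passed under all 13 alternatives of processing, with adjusted p-values between 6.4e-11 and 0.0252. In bulk tissue, a change in the number of cells of a type and a change in RNA per cell cannot be told apart.

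Markers of brainstem tissue and of the cells known for Ret were set beside this rise. Of 10 listed hindbrain markers 9 were in the table, and these summed to 24.9, 18.3 and 34.7 CPM in the MCAO libraries and 11.2, 13.1 and 12.1 CPM in sham LN. Of these 9, Slc6a5, the glycine transporter of inhibitory neurons, followed the order of Ret, at 17.1, 3.50 and 21.6 CPM in the MCAO libraries against 2.05, 2.19 and 3.02 CPM in sham LN (log2 change 2.54 ± 0.61, edgeR adjusted p = 0.0166), the only 1 of the 7 tested that passed. Of the genes that define the hindbrain, Hoxa2, Hoxa3, Hoxb2, Hoxb3 and Hoxd3 were at 0 in all 3 MCAO libraries, and all but Hoxb2 were at 0 in all 3 sham LN libraries. Hoxb4, of the same list, gave 6 counts in MCAO replicate 1 and 0 in the other MCAO and sham LN libraries. None of the 10 markers of motor and monoamine neurons passed by edgeR, and their sums of 57.9, 35.4 and 32.6 CPM in the MCAO libraries overlapped with 55.4, 27.5 and 49.3 CPM in sham LN. Among them Slc6a3 was at 0.192 CPM or less in MCAO. Of 9 neutrophil markers 8 were tested and all 8 rose, and the sums of the 9 were 959, 101 and 443 CPM in the MCAO libraries against 3.95, 3.82 and 4.63 CPM in sham LN. The part of these cells in the rise of Ret was not tested.

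Gfra1, the co-receptor that binds Gdnf, was at 34.7, 83.5 and 79.6 CPM in the MCAO libraries, against 24.6, 26.1 and 28.9 CPM in sham LN. The groups did not overlap, and here replicate 1 was the lowest of the MCAO libraries, whereas for Ret it was replicate 2. Its log2 change was 1.31 ± 0.31 (SE, edgeR adjusted p = 0.0168). The call was lost in 6 of the 13 alternatives, among them those without the unnumbered MCAO library (adjusted p = 0.0653), without sham LN replicates 1, 2 and 3 (0.0718, 0.0578 and 0.0536) and on the 6 compared libraries alone (0.0515), and the range of adjusted p over the 13 alternatives was 0.00118 to 0.116 by edgeR, limma or DESeq2.

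Ntrk3, the receptor for Ntf3, was at 31.9, 70.4 and 44.3 CPM in the MCAO libraries, against 88.8, 87.2 and 94.2 CPM in sham LN. All 3 MCAO libraries lay below all 3 shams, with replicate 2 again the closest. The log2 change came to -0.88 ± 0.24 (SE, edgeR adjusted p = 0.0299). The call was lost in 7 of the 13 alternatives: the edgeR adjusted p was 0.0886 on the 6 compared libraries alone, and among the fits with a library left out it rose to 0.0606 and 0.105 without MCAO replicate 1 and the unnumbered library and to 0.0809, 0.0698 and 0.0872 without sham LN replicates 1, 2 and 3. Without MCAO replicate 2 the log2 change was -1.33 and the edgeR adjusted p 0.000609.

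Ntrk2, the receptor for Bdnf, stood at 345, 556 and 412 CPM in the MCAO libraries and at 667, 694 and 638 CPM in sham LN. The groups did not overlap, but the share of all genes that separate in this way was not counted in any comparison. The gene missed the threshold (log2 change -0.61 ± 0.20, SE, edgeR adjusted p = 0.0510). It passed in 6 of the 13 alternatives, among them DESeq2 (adjusted p = 0.0112), over a range of 0.00311 to 0.153. Ntrk2 is known to make a full-length receptor in neurons and a shortened form without the kinase in astrocytes, and the gene-level counts do not separate them. Of 9 astrocyte markers 1 rose, Gfap, and 5 fell, at a median log2 change of -0.63. Their sums, which include Gfap, were 4412 to 5499 CPM in MCAO and 2366 to 2581 CPM in sham LN. Aldh1l1, an enzyme of astrocytes, was at 7.22, 11.8 and 7.35 CPM in the MCAO libraries and 23.6, 23.5 and 17.7 CPM in sham LN. Of 10 pan-neuronal markers 9 were tested, 1 rose and 0 fell, and the sums of the 10 were 3206, 5510 and 4919 CPM in the MCAO libraries and 5178, 6720 and 5292 CPM in sham LN. Their part in the values of Ntrk2 and Ntrk3 was not tested.

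Ngfr, the low-affinity neurotrophin receptor, was at 17.0, 1.58 and 9.05 CPM in the MCAO libraries and at 8.09, 2.59 and 1.30 CPM in sham LN. The groups overlapped, and replicate 2 lay within the sham range. Its log2 change of 1.20 ± 0.79 did not pass (SE, edgeR adjusted p = 0.301). The gene is also known from Schwann cells, the glia of peripheral nerves. Of 9 Schwann cell markers 8 were tested and 4 rose, Artn, Foxd3, Pmp2 and Scn7a, while the sums of the 9 were 113.9, 96.3 and 80.9 CPM in the MCAO libraries and 131, 101.5 and 119 CPM in sham LN. Their part in the values of Ngfr was not tested.

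**Figure D2:**
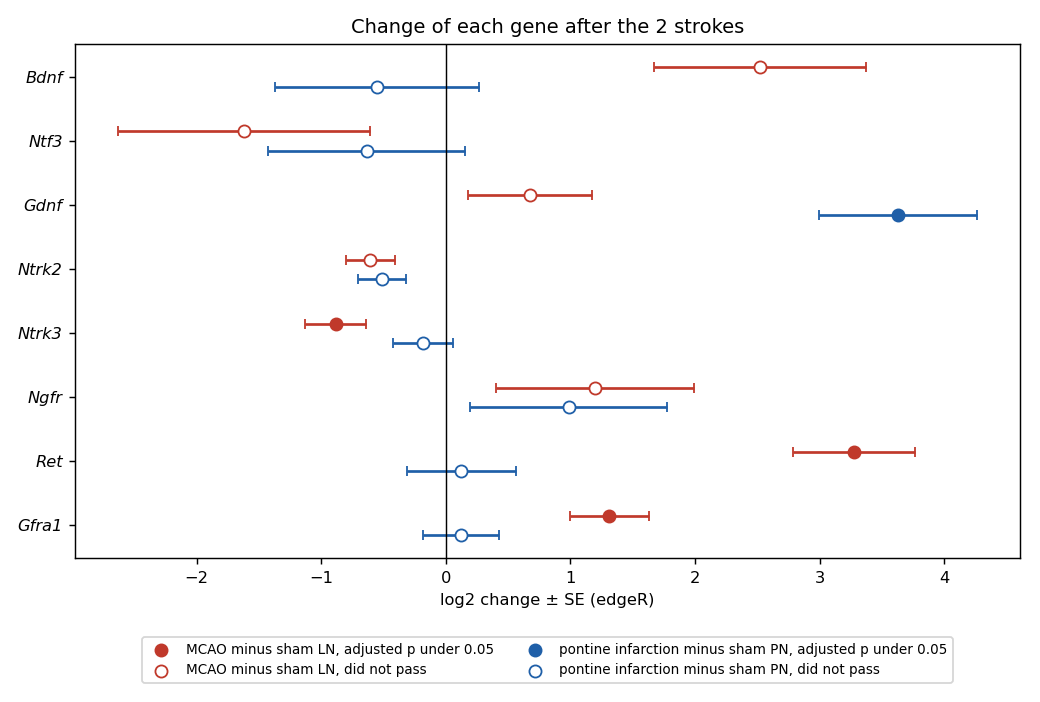
Log2 change of each of the 8 genes (horizontal axis, edgeR, whiskers 1 SE) for MCAO minus sham LN, drawn above, and pontine infarction minus sham PN, drawn below in each row; filled circles have an adjusted p under 0.05. Ret, Gfra1 and Ntrk3 are filled for MCAO, and Gdnf alone is filled for pontine infarction.

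Among the growth factors, Bdnf was at 9.67, 14.5 and 127 CPM in the MCAO libraries, against 3.95, 13.7 and 8.64 CPM in sham LN. The unnumbered library was far above all others, and replicate 1 lay within the sham range. The log2 change of 2.52 ± 0.85 did not pass (SE, edgeR adjusted p = 0.0591), and without the unnumbered library it was 0.46 (adjusted p = 0.600, over a range of 0.0191 to 0.712 in the 13 alternatives by edgeR, limma or DESeq2).

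The same library was high in genes that neurons switch on with activity or with Bdnf. The 14 genes of that list summed to 5417 CPM in the unnumbered MCAO library, against 1418 and 1127 CPM in MCAO replicates 1 and 2 and 822 to 1164 CPM in sham LN. Nptx2, a synaptic pentraxin induced by activity, reached 2760 CPM there, against 434 and 173 CPM in MCAO replicates 1 and 2 and 55.1, 95.8 and 56.5 CPM in sham LN. Vgf, a secreted peptide precursor induced by neurotrophins, was at 284 CPM there, against 130 and 74.3 CPM in replicates 1 and 2.

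**Figure D3:**
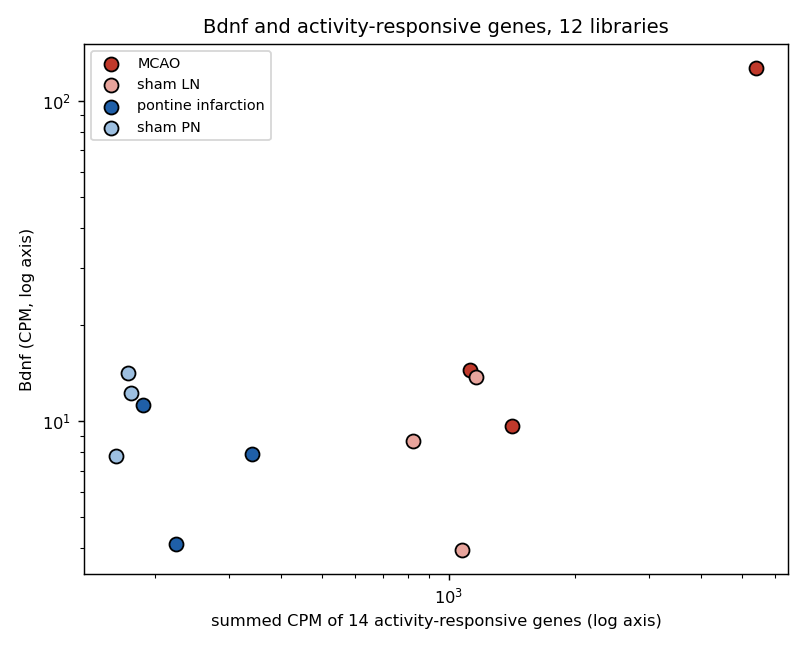
Bdnf (CPM, vertical log axis) against the summed CPM of 14 activity-responsive genes (horizontal log axis) in the 12 libraries, coloured by group. The unnumbered MCAO library lies alone at the upper right, at 127 CPM of Bdnf and 5417 CPM of the list, while the pontine infarction and sham PN libraries lie at the left at 340 CPM of the list or less.

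Gdnf was at 4.91, 2.22 and 4.89 CPM in the MCAO libraries and at 4.37, 0.926 and 2.18 CPM in sham LN. The groups overlapped, and the sham libraries themselves ranged widely. The log2 change was 0.68 ± 0.50 (SE, edgeR adjusted p = 0.351).

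Ntf3, neurotrophin 3, gave few reads: 0, 5 and 0 counts in the MCAO libraries, against 7, 6 and 10 in sham LN. Both libraries at 0 were MCAO libraries, and replicate 2, at 0.247 CPM, lay within the sham LN range of 0.184 to 0.382 CPM. The log2 change of -1.62 ± 1.01 did not pass (SE, edgeR adjusted p = 0.270). With replicate 2 left out, 0 counts stood against 23 in sham LN, 3.49-fold lower when 3 counts are taken for the 0. The ratio of summed counts then had a 95% interval of 0 to 0.382. With replicate 2 kept, 5 counts stood against 23, a scaled ratio of 0.321 with a 95% interval of 0.0953 to 0.863. Both intervals cover counting error only, and replicate 2 was the only MCAO library with reads of the gene. The edgeR adjusted p without replicate 2 was 0.0117, over a range of 0.0117 to 0.539 in the 11 alternatives that tested the gene.

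Other ligands of both families were set beside these 3. Of 4 further neurotrophic ligands tested, 2 rose after MCAO and 0 fell by edgeR, where 12.5% of all genes tested rose and 6.07% fell. Vgf was among those that rose (log2 change 1.59 ± 0.37, edgeR adjusted p = 0.0154). Manf and Cdnf did not pass, and Ntf4 had too few counts to be tested. Of 4 further ligands of the Gdnf family, 3 rose. Gdf15, a stress-induced factor that signals through Gfral and Ret, was at 20.3, 2.47 and 3.19 CPM in the MCAO libraries and 0.237, 0.0371 and 0.153 CPM in sham LN (log2 change 5.82 ± 1.15, edgeR adjusted p = 0.00771). Artn, artemin, rose (log2 change 2.43 ± 0.69, edgeR adjusted p = 0.0334), as did Nrtn, neurturin (log2 change 1.40 ± 0.40, edgeR adjusted p = 0.0328), and both overlapped with sham LN. Each was called only without MCAO replicate 2 among the 6 fits with a library left out. Pspn, persephin, did not pass (edgeR adjusted p = 0.123). With 1 library left out, the count called ran from 0 to 3 for the neurotrophic ligands and from 1 to 3 for the Gdnf family ligands. In these fits 1136 to 6170 of all genes passed. Limma voom called 1 gene of each list and 2841 of all 17008, and DESeq2 called 3 of each and 4584 of all.

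Of 11 neurotrophin receptor partners 1 fell and 0 rose, where 6.07% of all genes tested fell and 12.5% rose, at a median log2 change of -0.23. The gene that fell was Sorl1, a sorting receptor (log2 change -0.72 ± 0.22, edgeR adjusted p = 0.0449), which kept its call in 1 of 6 fits with a library left out, that without MCAO replicate 2. Sort1, sortilin, the partner of Ngfr for neurotrophin precursors, was at 435, 947 and 618 CPM in the MCAO libraries and 1079, 1191 and 973 CPM in sham LN (edgeR adjusted p = 0.0525). Of 6 further receptors of the Gdnf family 1 fell, Ncam1, an adhesion protein that can bind Gdnf (log2 change -0.66 ± 0.19, edgeR adjusted p = 0.0315), which likewise kept its call in 1 of 6 fits with a library left out, that without MCAO replicate 2. A single call in each of these lists is near the share over all genes. By edgeR none of the Gfra2, Gfra3, Gfra4 and Gfral co-receptors passed.

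Genes that mature or cleave neurotrophins rose in part. Of 12 processing genes 6 rose and 0 fell, at a median log2 change of 0.63 beside -0.0018 over all genes. Mmp9, a protease that can cleave the Bdnf precursor, was at 216, 31.8 and 267 CPM in the MCAO libraries and 3.48, 4.04 and 2.14 CPM in sham LN (log2 change 5.73 ± 0.93, edgeR adjusted p = 0.00348). Mmp3 rose as well (log2 change 7.09 ± 1.37, edgeR adjusted p = 0.00709). In both, replicate 2 was the lowest MCAO library. Neutrophils also make Mmp9, and the part of the neutrophil markers given above in these values was not tested.

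Inside the cell, 6 of 20 adaptors and effectors of Trk receptors and Ret rose and 0 fell, where 12.5% of all genes tested rose and 6.07% fell. Sh2b2, an adaptor of receptor tyrosine kinases, was at 68.1, 11.7 and 64.8 CPM in the MCAO libraries and 2.90, 4.48 and 4.13 CPM in sham LN (log2 change 3.65 ± 0.56, edgeR adjusted p = 0.00288), and it passed under all 13 alternatives. Shc1, a docking protein of these receptors, rose as well (log2 change 1.76 ± 0.41, edgeR adjusted p = 0.0152), and so did Dok5 (edgeR adjusted p = 0.0166). Of 9 effectors of Ngfr 2 rose and 0 fell, among them Rhoa, a GTPase that halts axon growth (log2 change 0.61, edgeR adjusted p = 0.0294). Of 12 feedback inhibitors of receptor tyrosine kinases 1 rose, Spry1 (log2 change 1.25, edgeR adjusted p = 0.0300), no more than the share over all genes. Of the 14 activity-responsive genes 5 rose, among them Nptx2, Ier2 and Junb (log2 change 4.02, 1.96 and 1.80, edgeR adjusted p = 0.00793, 0.00817 and 0.0149). Of the 13 alternatives, Rhoa passed in 5, Spry1 in 6, Shc1 and Dok5 in 9 each, Junb in 10, Nptx2 in 12 and Ier2 in 13. With 1 library left out, the count ran from 1 to 12 for the adaptors, 0 to 5 for the effectors of Ngfr, 0 to 8 for the feedback inhibitors and 2 to 6 for the activity-responsive genes, and each was highest without MCAO replicate 2 and lowest without sham LN replicates 1 and 3. In the same fits the count for the processing genes ran from 3 to 8 and that for the receptor partners from 0 to 6, both highest without MCAO replicate 2. The count over all genes moved as well. Without MCAO replicate 2 it was 6170 of 17529 genes, and without sham LN replicates 1 and 3 it was 1136 of 17304 and 1257 of 17318.

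**Figure D4:**
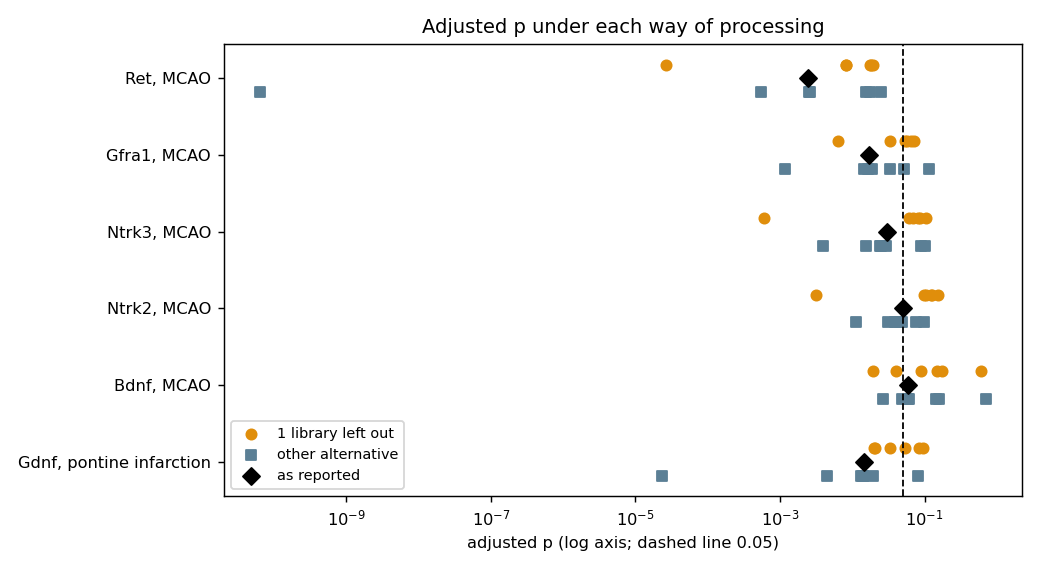
Adjusted p (horizontal log axis, dashed line at 0.05) of 6 results as reported (diamond), with 1 library left out (circles) and under the other alternatives (squares). Ret lies left of the line throughout, while Gfra1, Ntrk3, Ntrk2 and Bdnf after MCAO and Gdnf after pontine infarction have points on both sides.

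The comparison of pontine infarction with sham PN asks how the same genes differ after a stroke of the brainstem. Gdnf rose 12.4-fold, over a sham PN level of 3 counts in each library. The other 7 genes did not pass, and Ret and Gfra1 averaged 120.0 and 74.3 CPM in pontine infarction and 110.1 and 68.2 CPM in sham PN. Of all genes tested 4.08% passed, 3.21% higher and 0.87% lower, and of the 8 genes 1 passed higher and 0 lower (edgeR adjusted p under 0.05). The median log2 change of the 8 was -0.03, beside -0.08 over all genes tested.

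Gdnf gave 26, 81 and 36 counts in pontine infarction replicates 1 to 3 and 3 counts in each sham PN library. Scaled, these were 1.21, 1.89 and 1.35 CPM in pontine infarction and 0.129, 0.113 and 0.108 CPM in sham PN. Every pontine infarction library was above every sham PN library, and the shams hardly differed from each other. Its log2 change came to 3.63 ± 0.63 (SE, edgeR adjusted p = 0.0145). The ratio of summed counts, 143 against 9, was 13.5 after scaling, with a 95% interval of 6.94 to 30.2 that covers counting error only.

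The size of this rise kept between 3.40 and 3.75 on the log2 scale in the 13 alternatives, but the call did not hold in 4 of them. It was lost without sham PN replicates 1, 2 and 3 (edgeR adjusted p = 0.0538, 0.0830 and 0.0938) and with limma voom (adjusted p = 0.0813), and DESeq2 gave the lowest adjusted p of 2.3e-05. Without pontine infarction replicate 3, the library with cerebellar transcripts, the edgeR adjusted p was 0.0334. Of 9 astrocyte markers 1 rose and 1 fell; Gfap, which rose, stood at 5733, 3762 and 6684 CPM in pontine infarction and 1514, 1422 and 1623 CPM in sham PN. Of 10 microglia and macrophage markers 6 rose, and their sums were 621, 746 and 1683 CPM in pontine infarction and 340, 373 and 384 CPM in sham PN. Their part in the rise of Gdnf was not tested.

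Ret was at 141, 139 and 80.3 CPM in pontine infarction replicates 1 to 3 and 92.2, 117 and 121 CPM in sham PN. The groups overlapped, and replicate 3 held the lowest value. The log2 change was 0.12 ± 0.44 (SE, edgeR adjusted p = 0.895). The 10 motor and monoamine markers, of which 0 passed by edgeR, summed to 544, 501 and 225 CPM in pontine infarction and 306, 701 and 568 CPM in sham PN. In replicate 3 the dopamine transporter was at 0.0374 CPM, and Dbh, the enzyme that makes noradrenaline, at 50.6 CPM against 0.0936 to 9.41 CPM in the other pontine infarction and sham PN libraries. Their part in the values of Ret was not tested.

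Gfra1 was at 99.0, 75.2 and 48.5 CPM in pontine infarction replicates 1 to 3 and 60.7, 76.3 and 67.7 CPM in sham PN. Replicate 3 was again the lowest library and replicate 1 the highest. The log2 change was 0.12 ± 0.31 (SE, edgeR adjusted p = 0.850).

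Ntrk2 was at 534, 637 and 402 CPM in pontine infarction replicates 1 to 3 and 714, 788 and 739.6 CPM in sham PN. As after MCAO, the stroke libraries lay below all of their shams, but the gene did not pass (log2 change -0.51 ± 0.20, SE, edgeR adjusted p = 0.159), and none of the 13 alternatives called it. Ntrk3 was at 71.3, 60.7 and 45.8 CPM in pontine infarction and 67.9, 66.6 and 67.2 CPM in sham PN. Its groups overlapped (log2 change -0.18 ± 0.24, SE, edgeR adjusted p = 0.697). The 10 pan-neuronal markers, of which 0 of the 9 tested passed by edgeR, summed to 4376, 4441 and 2742 CPM in pontine infarction and 5407, 5986 and 5538 CPM in sham PN, and the lowest value of both receptors and of these markers was in replicate 3. Their part in these values was not tested.

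Ngfr was at 5.21, 6.10 and 16.5 CPM in pontine infarction replicates 1 to 3 and 5.97, 4.72 and 3.34 CPM in sham PN. Replicate 3 was the highest of the 6, and the groups overlapped (log2 change 0.99 ± 0.79, SE, edgeR adjusted p = 0.495). Bdnf was at 7.91, 11.2 and 4.11 CPM in pontine infarction and 14.1, 12.2 and 7.80 CPM in sham PN. No library of pontine infarction reached the level of the unnumbered MCAO library, and the groups overlapped (log2 change -0.55 ± 0.82, SE, edgeR adjusted p = 0.731). Ntf3 gave 3, 23 and 14 counts in pontine infarction and 18, 18 and 13 in sham PN (log2 change -0.64 ± 0.79, SE, edgeR adjusted p = 0.674).

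In the surrounding pathway, 4 of 12 processing genes rose after pontine infarction and 0 fell by edgeR, among them Mmp3, Mmp9 and Plau. Mmp9 was at 33.2, 5.29 and 6.54 CPM in pontine infarction and 0.516, 0.756 and 0.180 CPM in sham PN (log2 change 4.94, edgeR adjusted p = 0.0222). Junb was the only 1 of 14 activity-responsive genes that rose (log2 change 2.02 ± 0.42, edgeR adjusted p = 0.0251), where 3.21% of all genes tested rose. Its call was lost with limma voom (adjusted p = 0.0633) and without sham PN replicates 1, 2 and 3 (edgeR adjusted p = 0.0765, 0.118 and 0.133). The other 7 lists, with 66 entries tested, had 0 calls by edgeR, 0 by limma voom and 8 by DESeq2. Of these entries 15 had an unadjusted p under 0.05 by edgeR, 7 higher and 8 lower. Over all 17008 genes tested, 21.6% had an unadjusted p under 0.05 by edgeR, while DESeq2 called 1738 and limma voom 315. Without any 1 of the sham PN libraries the processing list had 0 calls by edgeR, and over the 6 fits with a library left out its count ran from 0 to 5.

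**Figure D5:**
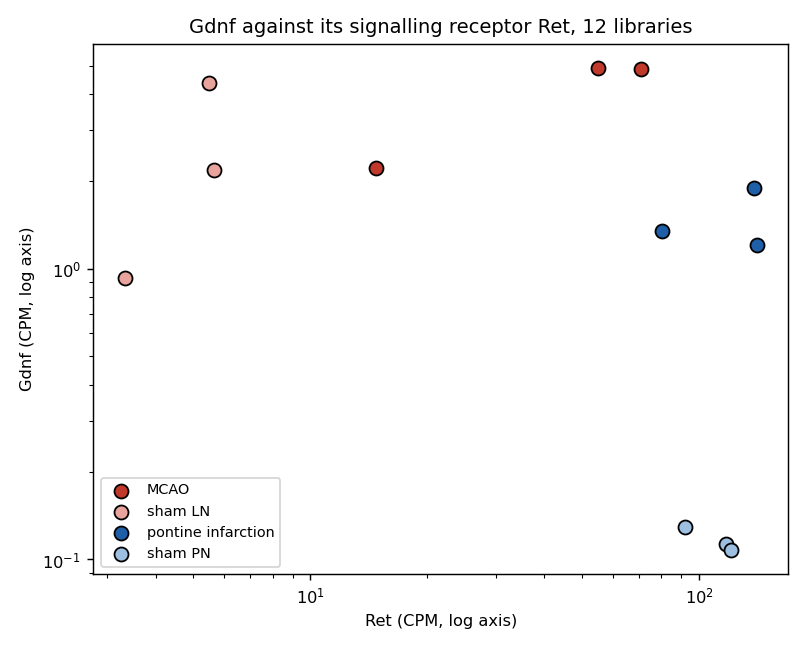
Gdnf (CPM, vertical log axis) against Ret (CPM, horizontal log axis) in the 12 libraries, coloured by group. Sham LN lies at the left with Ret at 5.66 CPM or less, sham PN at the lower right with Gdnf at 0.129 CPM or less, the MCAO libraries have Ret at 14.7 to 71.1 CPM and Gdnf at 2.22 to 4.91 CPM, and the pontine infarction libraries have Ret at 80.3 to 141 CPM and Gdnf at 1.21 to 1.89 CPM.

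The difference between the responses was tested in the same fit, MCAO response minus pontine infarction response. None of the 8 genes passed, and of all genes tested 0% did by edgeR, while 1826 genes and 4 of the 8 had an unadjusted p under 0.05. DESeq2 called 240 genes and limma voom 0. So a gene that passed after 1 stroke only is not shown to respond differently to the other. Ret came nearest, with a difference of 3.15 ± 0.64 on the log2 scale and rank 30 among all genes (SE, unadjusted p = 0.000396, edgeR adjusted p = 0.213). It passed in 2 of 18 alternatives, DESeq2 (adjusted p = 0.00095) and the fit without MCAO replicate 2 (edgeR adjusted p = 0.00183), over a range of adjusted p up to 0.573.

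For Gdnf the difference was -2.95 ± 0.80 (SE, edgeR adjusted p = 0.269), for Bdnf 3.07 ± 1.17 (0.401), for Gfra1 1.19 ± 0.44 (0.382) and for Ntrk3 -0.70 ± 0.34 (0.492). Of these 4, Ntrk3 passed in 1 of 18 alternatives, without MCAO replicate 2 (edgeR adjusted p = 0.0215), and the others in none. Ntrk2 had the smallest difference of the 8, -0.095 ± 0.28 (edgeR adjusted p = 0.935).

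The sham groups were compared with each other because the strokes were set against different shams. Gdnf was 20.8-fold higher in sham LN than in sham PN, whereas Ret was 22.8-fold and Gfra1 2.57-fold lower in sham LN. Of the 8 genes 1 was higher and 2 lower, while of all genes tested 21.3% passed, 10% higher and 11.3% lower (edgeR adjusted p under 0.05). The log2 differences were 4.38 ± 0.64 for Gdnf, -4.51 ± 0.51 for Ret and -1.36 ± 0.31 for Gfra1 (SE, edgeR adjusted p = 0.000638, 0.000123 and 0.00941), and all 3 passed in each of the 13 alternatives. The libraries of these groups did not overlap for any of the 3 genes.

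Each response thus began from a different sham level. After MCAO, Ret averaged 46.9 ± 29.0 CPM (SD, n = 3), above the sham LN level and below every pontine infarction and sham PN library. After pontine infarction, Gdnf averaged 1.48 ± 0.363 CPM (SD, n = 3), above sham PN and within the range of sham LN. All 7 hindbrain markers tested were lower in sham LN, at sums of 11.2 to 13.1 CPM in sham LN and 197 to 281 CPM in sham PN, and the motor and monoamine markers to 27.5 to 55.4 CPM in sham LN and 306 to 701 CPM in sham PN. Which cells account for the sham levels of Ret and Gdnf was not tested.

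The other 5 genes did not pass between the shams. Ntrk3 was at 88.8, 87.2 and 94.2 CPM in sham LN and 67.9, 66.6 and 67.2 CPM in sham PN, groups that do not overlap, with an edgeR adjusted p of 0.251 and of 0.00180 when these 6 libraries were fitted alone. Ntrk2 was also without overlap, lower in all sham LN libraries than in all sham PN libraries (edgeR adjusted p = 0.607). Ntf3 gave 7, 6 and 10 counts in sham LN and 18, 18 and 13 in sham PN (edgeR adjusted p = 0.303). Bdnf and Ngfr overlapped between the shams (edgeR adjusted p = 0.792 and 0.884).

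By group mean, Ret ran from pontine infarction through sham PN and MCAO to sham LN, and only pontine infarction and sham PN overlapped in their libraries. Gfra1 had the same order, and there sham LN alone was separate from its neighbour. Gdnf ran from MCAO through sham LN and pontine infarction to sham PN, which alone was separate. Ntrk2 was highest in sham PN, then sham LN, pontine infarction and MCAO, and the stroke groups overlapped with each other. Ntrk3 was highest in sham LN, with sham PN, pontine infarction and MCAO below it, each overlapping with the next. For Bdnf, Ntf3 and Ngfr all neighbours in the order overlapped.

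The genes whose log2 levels were most like each of the 8 across the 12 libraries were sought among 14664 genes with a mean of at least 1 CPM. These libraries fall into 4 groups and differ in tissue, so the coefficients describe the data set only. For Ret they were Pax8, Heatr5a and Steap2, each with a Pearson r of 0.97. For Gdnf they were Clspn, Clcf1 and Cd200r1 (r of 0.97, 0.93 and 0.92), and for Gfra1 Slc20a1, Nrp2 and LOC498426 (r of 0.90, 0.89 and 0.89). Ntrk2 was most like Syt11, Mapt and LOC685179 (r of 0.99, 0.97 and 0.97) and Ntrk3 most like Has3, Nanos1 and Oxct1 (r of 0.96, 0.96 and 0.95). Bdnf was closest to Nrp1, Ssbp3 and Fam13c (r of 0.91, 0.90 and 0.90), Ntf3 to Rfx4, Kazald1 and Gli1 (r of 0.97, 0.95 and 0.95) and Ngfr to Nfatc4, Rtp4 and Irf7 (r of 0.90, 0.89 and 0.88).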

How the data were processed

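Rat brain RNA was sequenced in 12 libraries of 4 groups with 3 each. The table deposited by the authors holds unscaled read counts per gene symbol, all whole numbers. HISAT2, with no version, and the genome Rnor_6.0 are named in the submitters' processing notes. For the counting program, the annotation and the strand setting, the entry is: not given in the sources used here. Without strand, reads of a gene and of a gene overlapping it cannot be told apart: on GRCr8, used for names and sequences only, annotated genes overlap Ntrk2 (7), Gdnf, Ntrk3 and Gfra1 (1 each). RNA had an integrity number above 8, per the labels. Of the columns 11 match a sample title, and 1 matches only its group, MCAO.

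Counts were tested in R 4.3.3 with edgeR 4.0.16 (quasi-likelihood, TMM scaling, filterByExpr with a minimum count of 10 and total of 15) in 1 fit over all 12 libraries. p-values are two-sided, adjusted by Benjamini-Hochberg over 17008 genes, with a threshold of 0.05. SE was computed as the size of a log2 change divided by the root of its F statistic. The script was tested on simulated counts. The same 4 comparisons were refitted in DESeq2 1.42.0 and limma voom 3.58.1, with size factors of DESeq2 for TMM, unfiltered, with at least 1 CPM required in 3 libraries, on only the compared groups, with replicate numbers as blocks, and leaving out each library. The 8 genes and all gene lists were chosen with earlier results of these data known. All 8 are described, and of each pathway list up to 3 genes with the lowest adjusted p in a stroke comparison, plus the listed ligands and receptors. Plau and the called marker genes were named after their values were seen. Some genes of these lists enter the counts but are not reported here by name.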

Additional observations from a re-analysis of the deposited data

How the results depend on the processing

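Over the alternatives tried, Ret after MCAO and Gdnf, Ret and Gfra1 between the shams kept their calls. After MCAO 3163 genes and 3 of the 8 passed. On the compared libraries alone these were 1354 and 1, and with the replicate block 1389 and 1. No filter and DESeq2 each called 5 of the 8. With 1 library left out, 1136 to 6170 genes and 1 to 6 of the 8 passed, most of them without MCAO replicate 2. After pontine infarction 694 genes and 1 of the 8 passed, against 1738 genes with DESeq2, 315 and 0 with limma voom, and 6 to 965 genes and 0 to 1 of the 8 with 1 library left out. For the difference DESeq2 called 240 genes and 1 of the 8, no filter 1 gene, and leaving out 1 library 0 to 970 genes and 0 to 2 of the 8. Between the shams 3625 genes passed, 6365 on those libraries alone and 2334 to 2662 with 1 left out. Without a filter the median over all genes moved to -0.12 for the difference, beside 0.08, and to 0 between the shams, beside -0.11 (log2). The cause of these shifts was not tested, and the fits with 1 library left out also hold fewer libraries.

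Some values that did not pass turned sign. Under the block these were Cdnf at 0.0988, Sorcs1 at -0.0920 and Tnfrsf19 at 0.0765 after MCAO, Nrtn at -0.0322 after pontine infarction and Ngfr at -0.18 for the difference, and with limma voom Nrtn at -0.0043. With 1 library left out, log2 changes after MCAO ran from -0.60 to 0.21 for Lingo1, -0.15 to 0.85 for Nradd, -0.99 to 0.0283 for Gfra2, -0.69 to 0.0405 for Gfra3, -0.75 to 0.12 for Gfral and -0.20 to 0.0694 for Tnfrsf19. After pontine infarction they ran from -0.14 to 0.35 for Gfra1, -0.0070 to 0.35 for Ret, -0.29 to 0.0348 for Kidins220, -0.16 to 0.17 for Nrtn and -0.0781 to 0.60 for Spry1. The difference ran from -0.49 to 0.0682 for Ntrk2 and -0.77 to 1.25 for Ngfr, and Ngfr between the shams from -1.26 to 0.20.

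Deviations of same-numbered libraries correlated at 0.104 and 0.0426 for MCAO with sham LN, at 0.0483, 0.15 and 0.154 for pontine infarction with sham PN, where each of the 6 libraries correlated best with its own number, and at 0.153, 0.0804 and 0.0435 for sham LN with sham PN. For MCAO with pontine infarction the correlations were 0.129 and 0.42, over 2 pairs. No label ties the numbers to a litter or day, so they were not taken to pair the samples. The correlations were not tested, so they cannot decide this for any comparison, and the comparisons with MCAO had only 2 numbered pairs each. The block, which drops the unnumbered MCAO library, called 818 genes after pontine infarction, 3843 between the shams and 0 for the difference, and 1, 3 and 0 of the 8. After MCAO it lost Gfra1 (edgeR adjusted p = 0.116) and Ntrk3 (0.102), which leaving out that library without a block also lost. Depth limits Ntf3, at 23 counts a library or less, and Gdnf in sham PN, at 3. Fits on the compared libraries alone were not run for the difference, which uses all 12.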

Other observations

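The pathway around the 8 genes also differed between the sham groups. Of all genes tested 10% were higher in sham LN than in sham PN and 11.3% lower (edgeR adjusted p under 0.05). Of 11 neurotrophin receptor partners 6 were higher and 0 lower, at a median log2 difference of 0.64 beside -0.11 over all genes tested. Among them Sort1, sortilin, averaged 1081 CPM in sham LN and 570 CPM in sham PN (log2 difference 0.92 ± 0.23, edgeR adjusted p = 0.0134), and Rtn4r, the Nogo receptor, 99.1 CPM in sham LN and 23.4 CPM in sham PN (log2 difference 2.08 ± 0.44, edgeR adjusted p = 0.00600). Of 14 activity-responsive genes, 8 were higher in sham LN and 0 lower, at a median log2 difference of 2.74. Nrtn, neurturin, was lower in sham LN, at 3.56 CPM against 12.9 CPM in sham PN (log2 difference -1.85 ± 0.40, edgeR adjusted p = 0.00669), as was the adaptor Sh2b2, at 3.84 CPM against 14.1 CPM in sham PN (log2 difference -1.88 ± 0.53, edgeR adjusted p = 0.0258). These genes were chosen after their values were seen.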
